A study of Bos taurus with 30 samples.

Results

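The neural miRNAs of the bovine anterior pituitary, the lobe that makes most of the gland's hormones, were chosen by their names and not by their values. All letters and arms of 7 miRNA families known from the nervous system were taken, which gave 9 of the 1030 mature miRNAs listed: bta-miR-9-5p, bta-miR-9-3p, bta-miR-124a, bta-miR-124b, bta-miR-128, bta-miR-137, bta-miR-138, bta-miR-153 and bta-miR-218. Small RNA was sequenced from 30 Holstein-Friesian bull calves, with 1 library per calf. The 15 calves on the high plane of nutrition (HI) drank 10 litres of milk replacer daily, made from 1.5 kg of powder, with free access to concentrate. The 15 on the moderate plane (MOD) drank 4 litres made from 0.5 kg, with at most 0.5 kg of concentrate. The diets ran from 2 weeks of age to sampling at 12 weeks. Values are reads of a miRNA relative to all miRNA reads of its library, scaled by the authors with trimmed mean of M values (TMM) factors and called CPM below. Libraries held 6650492 to 11086524 reads on miRNAs. A count of 3 reads, about the upper 95% limit of the expected count where 0 is listed, corresponded to 0.266 to 0.419 CPM. This limit covers counting error only.

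A miRNA is cut as a short duplex from a hairpin transcript, and the strand that is kept guides silencing complexes to messenger RNAs that match its first bases. miR-124 is the miRNA best known from mature neurons, miR-9 is known from neural progenitors and neurons, and the others of the set are known for roles in neuronal maturation, synapses and excitability. The anterior lobe is an epithelial endocrine tissue, whereas the neural lobe of the gland holds nerve endings and glia. Reads from a whole lobe do not tell fewer cells of a type from less RNA per cell.

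The libraries carried miRNAs of endocrine and epithelial cells at high levels. The endocrine list held 7 miRNAs, which were miR-375, miR-7 and, from the epithelial miR-200 family, miR-141, miR-429 and the miR-200 genes. Their summed level ran from 136048 to 232042 CPM in HI libraries and from 156618 to 230380 CPM in those of MOD calves. miR-375 alone was at a mean of 146057 CPM. In earlier results of these data the libraries of the 9 highest calf label numbers (5 HI and 4 MOD) stood apart from the other 21 (10 HI and 11 MOD), so the values below are also given within these sets. The boundary was itself chosen from another miRNA, miR-99b, of these libraries. What the numbers stand for is not given in the sources used here, and the study's calves came from several farms that the labels do not name, so what separates the sets was not tested.

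Expression of the neural miRNAs ran over more than 3 orders of magnitude in the same tissue. The highest was miR-153, with a mean of 1023 ± 73.6 CPM (SD, n = 30) and place 70 of the 419 miRNAs that passed the filter on low counts, followed by miR-218 at 529 ± 82.3 CPM (place 90) and miR-128 at 465 ± 114 CPM (place 104). miR-138 was at 95.5 ± 19.1 CPM, miR-137 at 32.3 ± 10.4 CPM and miR-9-5p at 29.2 ± 17.2 CPM. miR-124a, at 0.755 ± 0.941 CPM, and miR-9-3p, at 0.258 ± 0.271 CPM, did not pass the filter. The row of miR-124b held the same values as that of miR-124a in every library, so the 9 names gave 8 distinct measurements, and both are called miR-124 below. The level of reads also depends on how readily an RNA is ligated and copied in library preparation, so the order is an order of read levels.

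**Figure D1:**
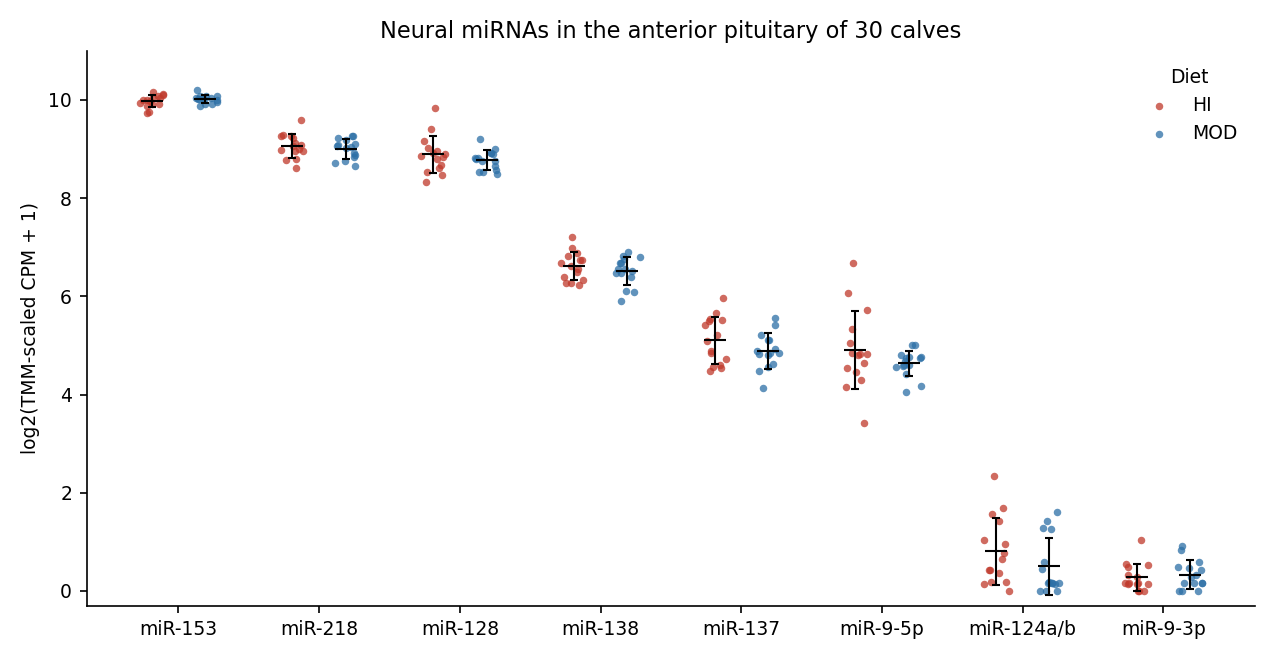
Level of each neural miRNA as log2(TMM-scaled CPM + 1) on the vertical axis, with 1 point per calf, HI in red and MOD in blue, and black bars for the mean and SD of 15 calves. The levels fall in steps from miR-153 at a mean of 1023 CPM to miR-9-3p at 0.258 CPM, and the HI and MOD points overlap for every miRNA.

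Neighbours in this order were compared within libraries, with a two-sided paired permutation test of 1e+05 sign flips, adjusted over 7 pairs by Benjamini-Hochberg. miR-153 was above miR-218, miR-128 above miR-138, miR-138 above miR-137 and miR-9-5p above miR-124 in 30 of 30 libraries (adjusted permutation p = 3.5e-05 each, from p = 2e-05, the smallest the test can give). miR-218 was above miR-128 in 23 of 30 libraries, by 0.20 ± 0.37 (SD, log2; adjusted permutation p = 0.00875). miR-137 was above miR-9-5p in 18 of 30 libraries, by a mean log2 difference of 0.22 ± 0.59 (SD; adjusted permutation p = 0.0455). miR-124 was above miR-9-3p in 18 of 30 libraries (adjusted permutation p = 0.00314), although both were mostly at or under 3 reads.

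miR-153, which is known to act on messenger RNAs of vesicle release, was the steadiest of the set from calf to calf. In HI calves it lay between 851 and 1150.5 CPM with a median of 1020.4 CPM, and in MOD calves between 944 and 1169 CPM with a median of 1040.1 CPM. The HI range held 3 calves below the lowest MOD calf and none above the highest. Its coefficient of variation over 30 libraries was 7.19%, the place 8 from the lowest among the 419 miRNAs, whose median was 19.8%. On total counts in place of TMM scaling it was 6.98%, place 3. The lowest libraries, HI AP93760 at 851 CPM and HI AP37840 at 857 CPM, were also those with the highest TMM factors (1.21 and 1.15). According to RefSeq (ARS-UCD2.0), used for names alone because the files are on ARS-UCD1.2, the 2 genes of miR-153 lie inside PTPRN and PTPRN2, which encode membrane proteins of the dense-core vesicles that store hormones.

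miR-218, known from motor neurons, lay between 389.6 and 769 CPM in HI calves (median 536) and between 402 and 615 CPM in MOD calves (median 527). Of the HI calves 2 lay above the highest MOD calf and 1 below the lowest. Its 2 RefSeq genes lie inside SLIT2 and SLIT3, which encode secreted guidance cues for growing axons. miR-128, a regulator of neuronal excitability, ranged from 322 to 909.7 CPM in HI calves (median 463) and from 358 to 589 CPM in MOD calves (median 441). The 2 highest libraries were HI AP93760 at 909.7 CPM and HI AP93744 at 681 CPM. Its 2 RefSeq genes lie inside R3HDM1 and ARPP21, the latter known as a phosphoprotein of brain neurons that responds to cyclic AMP. For each of miR-128, miR-138, miR-153 and miR-218 RefSeq lists 2 genes, and these members had fractional reads, in steps of 0.5, in 13 to 17 libraries. RefSeq also lists 2 genes for miR-9 and 3 for miR-124, and their rows had whole reads in every library, as did that of miR-137.

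miR-138, known for limiting the size of dendritic spines, was at 73.7 to 146 CPM in HI calves (median 97.4) and at 58.6 to 118 CPM in MOD calves (median 92.7). miR-137, known for neuronal maturation and with a single RefSeq gene, was at 21.2 to 61.3 CPM in HI calves (median 32.9) and at 16.7 to 45.9 CPM in MOD calves (median 27.8). Both diets overlapped over most of their ranges, with 2 HI calves above the highest MOD calf for each of these miRNAs.

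miR-9-5p was the most variable of the 6 that passed the filter, with a coefficient of variation of 58.9% (place 398 of 419 from the lowest). In HI calves it ran from 9.65 to 101 CPM with a median of 27.2 CPM, and in MOD calves from 15.6 to 31.3 CPM with a median of 24.7 CPM. The HI range enclosed that of the MOD calves, with 5 HI calves above the highest MOD calf and 1 below the lowest. Its SD was 23.2 CPM among HI calves against 4.33 CPM among MOD calves, and 14.6 CPM in the 14 HI calves without AP17855. Without AP42931 as well it was 10.6 CPM in 13 HI calves. The difference in spread was not tested.

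HI calf AP17855 held the highest values of miR-9-5p, miR-137 and miR-124 among the 30 libraries. It had 101 CPM of miR-9-5p from 945 reads, 3.94 times the median of the other 29 libraries, and 61.3 CPM of miR-137, 2.15 times that median. It had 4.06 CPM of miR-124 from 38 reads, against at most 2.22 CPM elsewhere. It was at place 2 of 30 for miR-218 (624 CPM, 1.18 times the median of the others) and place 3 for miR-153 (1112 CPM, 1.08 times). It was at place 13 for miR-128, place 26 for miR-138 and place 22 for miR-9-3p, the last from 1 read. It was the highest library for 17 of all 419 miRNAs (4.06%). Of the 14 other nervous system miRNAs listed beside the set, only miR-135b was at its highest there, at 3.10 CPM from 29 reads against at most 1.77 CPM elsewhere (named after its values were seen). miR-129 and miR-129-5p, with the same values, were at place 2 (1.69 times the median of the others). miR-488 was at place 3 (1.36 times) and miR-129-3p at place 4 (1.41 times). The rest lay between place 6 (miR-383) and place 26 (miR-212). The summed glial level of this calf was 472 CPM (place 21), nearly all of it miR-338 at 471 CPM (place 21). The other rows of the glial list had few reads there, with miR-219 at 4 (place 18), miR-219-5p at 6 (place 11) and miR-219-3p at 1 (place 8).

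The 3 libraries highest in miR-9-5p, which were HI AP17855, HI AP42931 (65.9 CPM) and HI AP13745 (51.8 CPM), were also among the 4 with the most miRNA of the stromal list (miR-143, miR-145, miR-199a and miR-214). The summed stromal level was 183329 CPM in AP13745, 81769 CPM in AP42931 and 54038 CPM in AP17855. Over all libraries this sum, to which miR-143 contributed most, ran from 32132 to 183329 CPM among HI calves and from 33338 to 76179 CPM among MOD calves, and all 5 of its members were detected. The other library among the 4, MOD AP47825, had 76179 CPM of the stromal list and 17.1 CPM of miR-9-5p. The striated muscle list was highest in the same 4 libraries, at 85.8 CPM in AP13745, 30.6 CPM in AP47825, 23.9 CPM in AP42931 and 21.6 CPM in AP17855. Of its 4 members, miR-1 and miR-206 were at 0 in 29 libraries each. The part of stromal or muscle tissue in the level of miR-9-5p was not tested.

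The arms of miR-9 differed widely. miR-9-5p had 7674 reads in all libraries together and miR-9-3p had 67, which is 0.866% of both (95% exact binomial interval 0.671 to 1.098%, counting error only). The 5p arm was the higher in 30 of 30 libraries. miR-9-3p was listed at 0 in 6 libraries and stood above 3 reads in 8, at most 9 reads in HI AP42931, which was second highest for the 5p arm. Its median was 0.113 CPM in HI calves, from 0 to 1.06 CPM, against 0.210 CPM in MOD calves, from 0 to 0.882 CPM.

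miR-124 was at or near the limit of detection. It was at 0 in 4 libraries and at or under 3 reads in 17 of 30. In HI calves it ran from 0 to 4.06 CPM (median 0.577, at most 38 reads), and in MOD calves from 0 to 2.05 CPM (median 0.125, at most 16 reads). More than 3 reads were found in 8 HI and 5 MOD libraries (two-sided Fisher's exact test, p = 0.462). Its values differed between the sets of libraries, by 0.97 on log2(CPM + 1). Over the 419 tested miRNAs the median absolute difference between the sets was 0.13, and 5 did not overlap between the sets at all. All 9 libraries of highest label number had 7 to 20 reads, or 0.699 to 2.22 CPM with a median of 1.68 CPM, whereas the other 21 had a median of 1 read, and 4 of them had more than 3. AP17855 was the only library of the 21 above the 9.

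**Figure D2:**
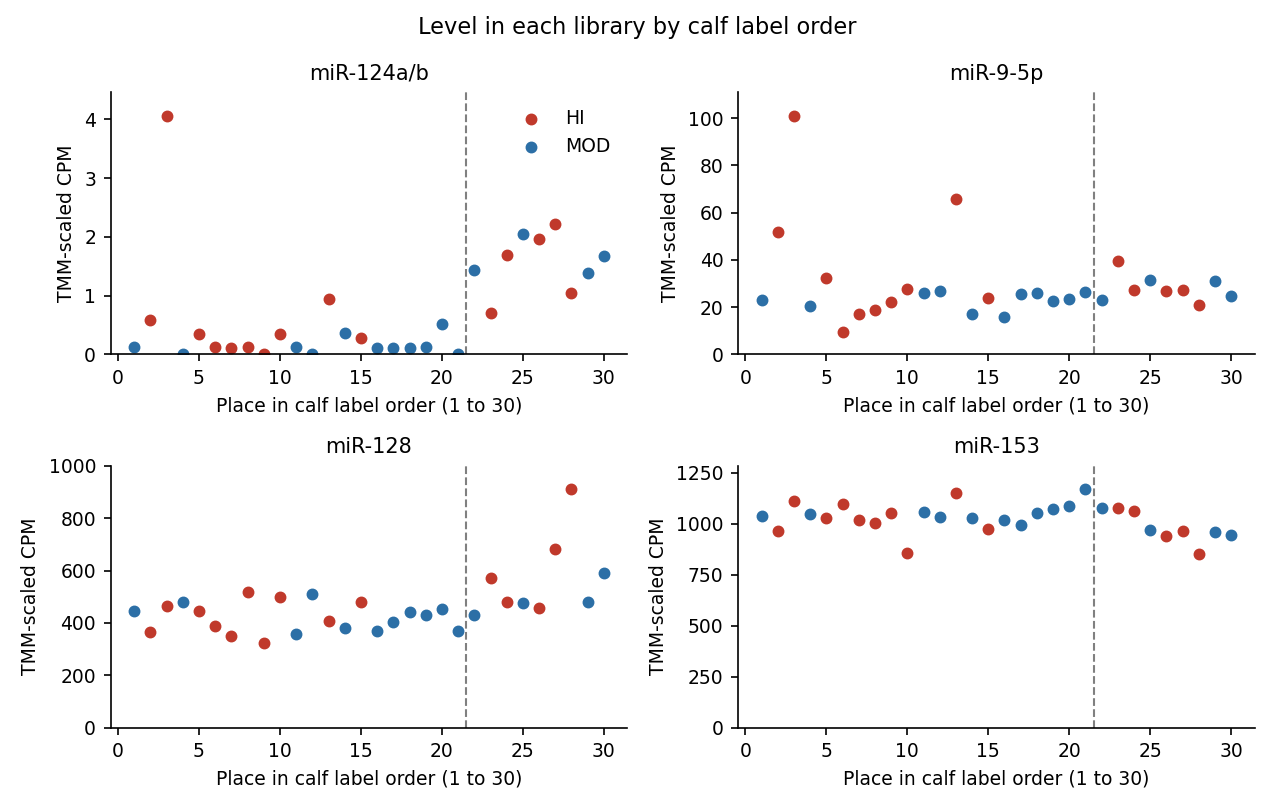
TMM-scaled CPM of miR-124, miR-9-5p, miR-128 and miR-153 on the vertical axes against the place of each calf in the order of label numbers, with HI in red, MOD in blue and a dashed line before the 9 highest numbers. miR-124 is at 0.699 to 2.22 CPM in all 9 libraries right of the line and near 0 in most of the 21 left of it, and AP17855 is the highest point for miR-124 and miR-9-5p.

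miR-128 was also higher in the 9 libraries, at 430.3 to 909.7 CPM (median 480.5) against 322 to 520 CPM (median 430.1) in the other 21. Every library of the 9 was above the median of the 21 and 4 were above their highest. The log2 difference between the sets was 0.39, place 38 by size among the 419 miRNAs, whose median absolute difference was 0.13. The other 5 tested members had differences of 0.03 to 0.16 in size, from place 171 to place 374. The summed endocrine level was 177444 to 232042 CPM in the 9 and 136048 to 211088 CPM in the 21, and the summed glial level 313 to 547 CPM and 411 to 630.4 CPM. The glial sum was nearly all miR-338, at a mean of 505 CPM over all libraries. The means of miR-219, miR-219-5p and miR-219-3p were 0.491, 0.561 and 0.0683 CPM. The part of endocrine or glial cells in the levels of miR-124 and miR-128 was not tested.

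The study asked whether the plane of nutrition alters miRNA expression in the anterior pituitary, and for the neural miRNAs none of the 6 that could be tested passed FDR < 0.1 between HI and MOD calves. Over all miRNAs 3.58% passed (15 of 419, limma on log2(CPM + 1) with Benjamini-Hochberg adjustment), and 0.477% also had a fold change above 1.5. At an unadjusted p under 0.05 there were 0 of the 6 members, against 12.6% of all miRNAs, and the count of members at FDR < 0.1 was also 0 in edgeR's quasi-likelihood test and in DESeq2 on the recovered reads. A total of 5 of the 6 were nominally higher and 1 was lower in HI calves, with a median log2 difference of 0.11 against 0.02 over all 419. Over all 419 miRNAs, 45.1% were nominally lower in HI calves.

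Among the tested members, miR-9-5p had the largest difference in size. Its mean was 34.1 ± 23.2 CPM in HI calves against 24.2 ± 4.33 CPM in MOD calves (SD, n = 15 in both). Its log2 fold change of 0.28 had a standard error of 0.21 and an FDR of 0.721 in limma. Of the 15 HI calves 9 exceeded the MOD median. Without HI calf AP17855 it was 0.15, and without HI calf AP27848, the lowest library, it was 0.38. On the recovered reads it was 0.52 with edgeR's quasi-likelihood test (FDR = 0.284) and 0.49 with DESeq2 (FDR = 0.272), with unadjusted p-values of 0.0284 and 0.0273. It was followed by miR-137, with a mean of 35.1 ± 12.2 CPM in HI calves against 29.5 ± 7.66 CPM in MOD calves. Its log2 fold change of 0.21 had a standard error of 0.15 and an FDR of 0.708 in limma, and 9 of the 15 HI values exceeded the MOD median. Without AP17855 this was 0.15.

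The log2 fold changes of the others were 0.11 for miR-128, 0.10 for miR-138, 0.07 for miR-218 and -0.04 for miR-153, with FDR from 0.787 to 0.873 in limma. For miR-153 the 95% interval ran from -0.13 to 0.05, for miR-218 from -0.10 to 0.23, for miR-128 from -0.11 to 0.33, for miR-138 from -0.11 to 0.31 and for miR-137 from -0.09 to 0.52. A fold change of 1.5, or 0.585 on the log2 scale, lay outside each of these 5 intervals, which are for 30 libraries with TMM scaling. For miR-9-5p, with an interval from -0.15 to 0.70, it did not. miR-137 was at 0.27 on total counts (standard error 0.16) and at 0.28 in the 21 libraries (standard error 0.17). In these 2 settings a fold change of 1.5 was not excluded for miR-137. Nor was it excluded in the 9 libraries of highest label order for miR-138, miR-128 and miR-137. Their log2 fold changes there were 0.39 (standard error 0.17), 0.29 (standard error 0.19) and 0.06 (standard error 0.27). The sign for miR-153 turned on total counts in place of TMM scaling (0.023). With upper quartile scaling miR-153 was at -0.14 (unadjusted p = 0.0145, FDR = 0.152 from limma), outside the interval above, and miR-218 turned to -0.034. Under that scaling, which lowered the median of all miRNAs to -0.07, miR-128 was at 0.013, miR-138 at 0.0034, miR-137 at 0.12 and miR-9-5p at 0.18. Single calves moved these values by over 1.5 times, to 0.045 for miR-128 without HI AP93760, 0.028 for miR-218 without HI AP81983, 0.058 for miR-138 without MOD AP97821 and -0.023 for miR-153 without HI AP93760. Calves were also blocked by the range of the last digits of their label numbers, which does not follow the label order. In that fit miR-138 was at 0.18 (FDR = 0.632 from limma).

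**Figure D3:**
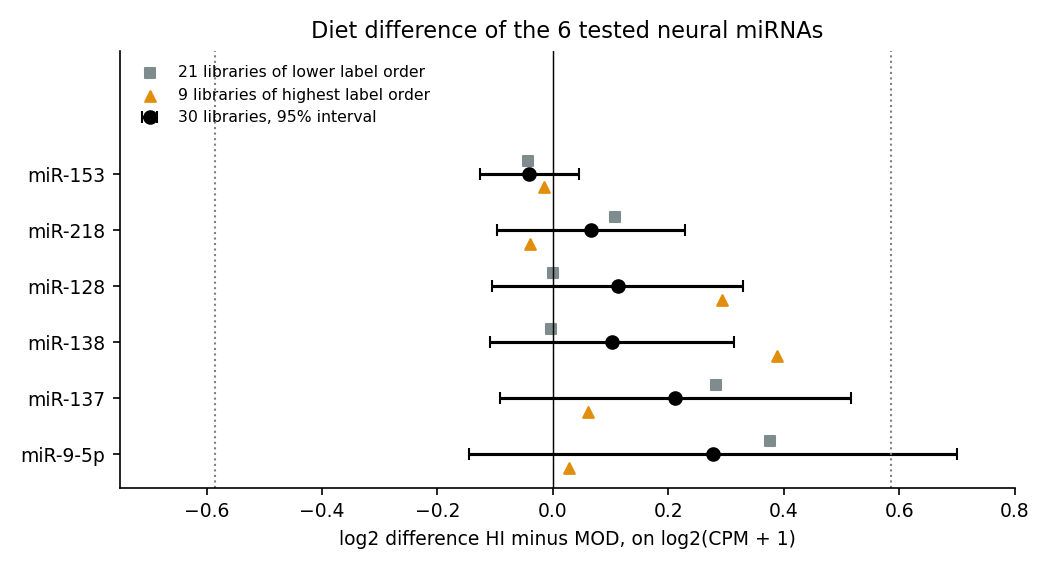
Difference between HI and MOD calves on the log2(CPM + 1) scale for the 6 tested neural miRNAs, as black points with 95% intervals from limma over 30 libraries, with grey squares for the 21 libraries of lower and orange triangles for the 9 of highest label order. Every interval includes 0, and that of miR-9-5p alone passes the dotted line of a fold change of 1.5.

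Within the sets of libraries no member had an exact permutation p under 0.05. In the 21 libraries the log2 difference was 0.38 for miR-9-5p (exact permutation test, p = 0.236) and 0.28 for miR-137 (exact permutation p = 0.139), and in the 9 libraries it was 0.03 (exact permutation p = 0.889) and 0.06 (exact permutation p = 0.857). miR-138 and miR-128 differed by -0.0031 and -0.00061 in the 21 libraries. In the 9 they differed by 0.39 (exact permutation p = 0.0794) and 0.29 (exact permutation p = 0.238). Limma on the 9 libraries alone gave miR-138 an unadjusted p of 0.0438 and an FDR of 0.784. Whether the diet effect depended on the set was tested as an interaction in limma, in which 0 of the 6 members passed FDR < 0.1 (0% of all 419 miRNAs) and 0 had an unadjusted p under 0.05 (5.01%, 21 of 419). The lowest among the members was miR-138, with an interaction of 0.39 (standard error 0.21, unadjusted p = 0.0770, FDR = 0.786 from limma). For the members that did not pass the filter, the log2 difference was 0.30 for miR-124 and -0.06 for miR-9-3p (two-sided permutation tests of 1e+05 resamples, p = 0.202 and p = 0.580). Within the 21 libraries that of miR-124 was 0.38 (exact permutation p = 0.0513), and within the 9 it was -0.10 (exact permutation p = 0.683).

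Of the 15 pairs among the 6 tested members, miR-218 and miR-137 varied together most closely over calves. On the log2(CPM + 1) scale Pearson's r was 0.71 and Spearman's rho 0.71 (n = 30, permutation p = 2e-05 and 4e-05, adjusted over the 15 pairs 0.0003 and 0.0006). Without HI AP81983 and HI AP77860, the libraries farthest from the median of miR-218, r was 0.66 (permutation p = 0.00011). Within the 21 libraries r was 0.66 and rho 0.61 (permutation p = 0.00136 and 0.00415, adjusted 0.0204 and 0.0622). Within the 9 libraries r was 0.86 and rho 0.85 (exact permutation p = 0.00288 and 0.00607). On total counts r was 0.80 and rho 0.82 (permutation p = 1e-05 each, the smallest the test can give). HI AP81983 had the highest miR-218 (769 CPM) and the second highest miR-137 (49.6 CPM), and the lowest of both diets for miR-137, MOD AP57867 at 16.7 CPM, had 402 CPM of miR-218.

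**Figure D4:**
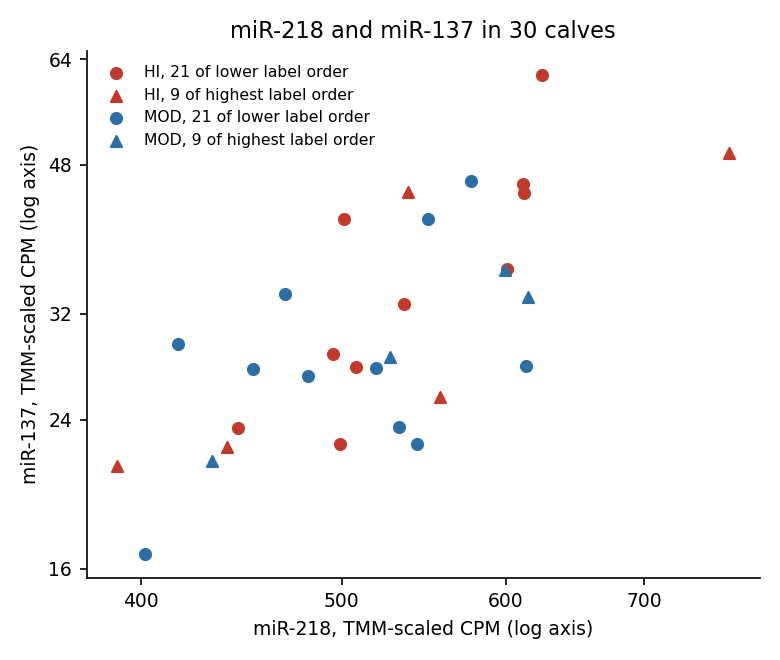
miR-137 against miR-218 in 30 libraries, both as TMM-scaled CPM on log axes, with HI in red, MOD in blue, circles for the 21 libraries of lower and triangles for the 9 of highest label order. The points rise together within both sets, from MOD AP57867 at 402 and 16.7 CPM to HI AP81983 at 769 and 49.6 CPM.

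Of the other pairs only that of miR-153 and miR-128 had an adjusted permutation p under 0.05 for r (r = -0.54, permutation p = 0.00252, adjusted 0.0189), and its rho of -0.38 did not (permutation p = 0.0376, adjusted 0.282). Without HI AP93760 and HI AP37840, the libraries farthest from the median of miR-153, r was -0.34 (permutation p = 0.0783). On total counts it was -0.18 (permutation p = 0.348). Within the 21 libraries r was -0.26 (permutation p = 0.252), and within the 9 it was -0.64 (exact permutation p = 0.0592). What this relation came from was not tested. miR-9-5p and miR-137 had an r of 0.39 and a rho of 0.19 (permutation p = 0.0325 and 0.317), and without HI AP17855 and HI AP81983 r was 0.18 (permutation p = 0.349).

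Among the 418 other miRNAs that passed the filter, those most like each member were ranked by Spearman's rho over the 30 libraries, which is a description without a test, as libraries share scaling and composition. miR-218 was followed most closely by miR-137 (rho 0.71), miR-99a-3p (0.71) and miR-181d (0.69), and miR-137 by miR-99a-3p (0.77), miR-18a (0.74) and miR-218 (0.71). miR-128 was most like miR-429 (0.77), an epithelial miRNA of the miR-200 family, and then miR-424-3p (0.69) and miR-502a (0.66). miR-153 was most like miR-499 (0.65), miR-335 (0.60) and miR-191 (0.53), and miR-138 like miR-490 (0.52), miR-92a (0.52) and miR-339a (0.51). No miRNA followed miR-9-5p closely, the highest being miR-6524 (0.47), miR-99a-5p (0.43) and miR-211 (0.39).

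The other miRNAs known from the nervous system gave 14 names, of which 10 passed the filter, although miR-129 and miR-129-5p held the same values. None of the 10 passed FDR < 0.1 in limma, where 3.58% of all 419 miRNAs did. In HI calves 5 were nominally higher and 5 lower, with miR-129 and miR-129-5p both counted among the lower. An unadjusted p under 0.05 was found for 1 of the 10, against 12.6% of all miRNAs. The highest was miR-132, known to follow neuronal activity, at a mean of 4057 CPM, and the lowest was miR-219-3p at 0.0683 CPM. The miRNA with the low p, named after its value was seen, was miR-338, known from oligodendrocytes. Its mean was 469 ± 66.3 CPM in HI calves against 542 ± 57.8 CPM in MOD calves (SD, n = 15 in both), a log2 difference of -0.21 with an FDR of 0.106 in limma. The rows of miR-219, also known from oligodendrocytes, were low in all libraries, with miR-219 at 0.112 to 0.820 CPM, miR-219-5p at 0 to 1.05 CPM, miR-219-3p at 0 to 0.707 CPM and miR-219b-3p at 0.525 to 2.67 CPM.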

How the data were processed

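The authors removed adapters and reads outside 15 to 28 bases with Cutadapt, set aside ribosomal, transfer and small nuclear RNA, and quantified annotated bovine miRNAs with miRDeep2 on ARS-UCD1.2. The submitters' processing notes name cutadapt 2.6 and edgeR 3.5. The deposited values are a normalized signal, CPM scaled by TMM factors, and not raw counts. Within a library low values are multiples of what a read is worth, which gave back whole reads. Of the values up to 20 reads, 93.7 to 97.8% came out whole (within 0.1 of a read).

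After filterByExpr of edgeR was applied to these reads, 419 miRNAs remained, and HI and MOD calves were compared by limma 3.58.1 in R 4.3.3, with an intensity trend, on log2(CPM + 1), a scale that understates the change of low miRNAs. Thresholds were those of the study, FDR < 0.1 (Benjamini-Hochberg) and a fold change above 1.5. Alternatives were edgeR 4.0.16 and DESeq2 1.42.0 on rounded recovered reads, which call 20 and 24 of the 419 miRNAs at FDR < 0.1, other scalings, filters, covariates and left-out calves. The scripts were tested on simulated data. Every member was named, with the 3 miRNAs most like each tested member by Spearman's rho. Members and lists were chosen with earlier results of these data known. In the list for stratified epithelium 1 name, miR-205, was found, at 113 to 749 CPM. The lists for red cells, leukocytes, striated muscle and endothelium summed to 10578 to 27422, 451 to 898, 5.86 to 85.8 and 8998 to 16172 CPM. RefSeq gave 14 genes for the 7 miRNA numbers. Labels do not say whether calves shared handling, so p-values measure the spread between these libraries. Mature sequences were not used here.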

Additional observations from a re-analysis of the deposited data

How the results depend on the processing

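In the study, calves were blocked by age, body weight, sire and farm of origin before the diets were assigned. The labels do not name these blocks, so they could not be used here to pair or block HI and MOD calves. The count of neural miRNAs at FDR < 0.1 was 0 in all 42 alternatives run. Over all miRNAs, 15 passed FDR < 0.1 and 2 also had a fold change above 1.5. With edgeR's quasi-likelihood test the second count was 4, and with DESeq2 the counts were 24 and 4. With upper quartile scaling they were 29 and 1, and the first was 3 higher and 26 lower in HI calves, against 8 and 7 with TMM and 16 and 2 on total counts. The second count was 1 under a filter of over 5 CPM in 15 or more calves and 1 in the 21 libraries of lower label order. In the 9 of highest label order both counts were 0, with fewer samples. Leaving out 1 calf gave 14 to 21 and 2 to 4. The log2 fold change of miR-153 turned to 0.023 on total counts, that of miR-218 to -0.034 with upper quartile scaling and to -0.039 in the 9 libraries, and those of miR-128 and miR-138 to -0.00061 and -0.0031 in the 21 libraries. The scalings shift all miRNAs together, to a median log2 fold change of 0.07 on total counts and -0.07 with the upper quartile against 0.02. For the others the cause was not tested. Leaving out 1 calf moved the log2 fold change of miR-9-5p between 0.15 (without HI AP17855) and 0.38 (without HI AP27848), and that of miR-137 between 0.15 and 0.26. When the 9 libraries were blocked these were 0.27 and 0.22. Depth limits miR-124 and miR-9-3p, at or under 3 reads in 17 and 22 of 30 libraries.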
